A study of Mus musculus with 9 samples.

Results

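Rab GTPases are small membrane switches, and the mouse genes named Rab followed by a number and an optional letter were taken as members here, 57 genes of 40993 in the expression table. A total of 37 of the 57 averaged 1 FPKM or more across all 9 libraries and could be tested, 11 were under that level but above 0 in some library, and 9 were listed at 0 in every library. BV2, an immortalized mouse microglial cell line, was exposed for 12 h to MNPs@SiO2(RITC), particles with a cobalt ferrite core inside a silica shell that holds rhodamine B isothiocyanate. Libraries were made from 3 samples of non-treated control cells, 3 samples treated at 10 µg/ml and 3 samples treated at 100 µg/ml, all of the same cell line, and were sequenced as poly(A) RNA. The labels do not say whether the 3 samples of a group were separate cultures, so that p-values measure the spread between these libraries, which may be technical. In bulk RNA, fewer cells with a transcript and less of it in each cell cannot be told apart.

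A Rab protein is anchored in a membrane by prenyl groups, is switched on by a guanine nucleotide exchange factor that loads GTP, and is switched off by a GTPase-activating protein. In its GTP form it recruits effectors, which are tethers, motors and lipid kinases, and so gives each compartment its identity. In phagocytic cells such as microglia, swallowed material passes from Rab5-positive early endosomes and phagosomes to Rab7-positive late endosomes and lysosomes, while Rab4 and Rab11 return membrane to the surface and other Rabs carry secretory vesicles outward. The comparisons asked at what level each Rab transcript stood in these microglia, and whether it moved when the cells took up particles at either dose.

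The cell line's label was checked against marker genes. Of 12 microglial markers, 10 were at 1 FPKM or more, led by Cd68, a lysosomal membrane protein of macrophages, with a mean of 413 FPKM over the 9 libraries. The homeostatic markers Cx3cr1 and P2ry12, at 0.0391 and 0.121 FPKM in control cells, were close to 0. None of the 5 astrocyte, 5 neuronal, 4 oligodendrocyte and 4 fibroblast markers averaged 1 FPKM. The microglial markers summed to 1467, 1409 and 1278 FPKM in control cells, to 1315, 1286 and 1373 at 10 µg/ml and to 1373, 1214 and 1204 at 100 µg/ml, and Aif1, the gene of Iba1, averaged 6.54 FPKM in control cells and 3.87 FPKM at 100 µg/ml. The summed markers overlapped between the groups, while the Aif1 libraries at 100 µg/ml lay under those of control cells. Whether differences in these markers bear on the Rab values was not tested.

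The promoters of 4 Rab genes are printed because the comparisons turned on them: Rab32 was the one Rab past the adjusted threshold, Rab31 had the next smallest p at 100 µg/ml, Rab20 had the largest positive fold change, and Rab5a marks early endosomes. They come from RefSeq (GRCm38.p6), run 5′ to 3′ on the gene's strand from 250 bases before to 50 bases after the transcript start, and carry in capitals each CACGTG, the E-box read by MiT/TFE factors of lysosomal gene control, and each GGGCGG or its reverse complement CCGCCC, the GC box. The Rab32 window is chr10:10558158-10558457 on the minus strand, Rab31 chr17:65772703-65773002 minus, Rab20 chr8:11478591-11478890 minus and Rab5a chr17:53478984-53479283 plus.
Rab32: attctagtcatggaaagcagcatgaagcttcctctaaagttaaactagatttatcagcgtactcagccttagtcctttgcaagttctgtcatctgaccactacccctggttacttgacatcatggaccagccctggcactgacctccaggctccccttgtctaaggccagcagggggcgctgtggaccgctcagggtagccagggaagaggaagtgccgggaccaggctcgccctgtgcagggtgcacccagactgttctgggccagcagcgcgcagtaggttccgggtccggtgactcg
Rab31: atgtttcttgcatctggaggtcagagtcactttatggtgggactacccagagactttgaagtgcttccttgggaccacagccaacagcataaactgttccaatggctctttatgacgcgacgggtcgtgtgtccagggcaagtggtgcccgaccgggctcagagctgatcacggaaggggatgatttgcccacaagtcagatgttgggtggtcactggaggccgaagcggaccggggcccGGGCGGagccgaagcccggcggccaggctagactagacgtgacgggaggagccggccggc
Rab20: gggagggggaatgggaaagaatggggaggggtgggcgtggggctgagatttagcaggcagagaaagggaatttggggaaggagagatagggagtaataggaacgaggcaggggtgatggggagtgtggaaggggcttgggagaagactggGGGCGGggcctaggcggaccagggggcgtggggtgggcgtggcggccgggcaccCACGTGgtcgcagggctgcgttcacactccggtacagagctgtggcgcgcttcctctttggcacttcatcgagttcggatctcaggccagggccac
Rab5a: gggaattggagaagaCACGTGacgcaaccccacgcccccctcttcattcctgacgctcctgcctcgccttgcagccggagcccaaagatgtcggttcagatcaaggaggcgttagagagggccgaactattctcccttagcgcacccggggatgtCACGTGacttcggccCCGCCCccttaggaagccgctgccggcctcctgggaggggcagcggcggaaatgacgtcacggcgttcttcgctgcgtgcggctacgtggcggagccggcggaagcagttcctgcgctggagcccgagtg
No CACGTG and no GC box was found in the Rab32 window, the Rab31 window held 1 GC box, the Rab20 window 1 of each, and the Rab5a window 2 CACGTG and 1 GC box.

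RefSeq promoters were matched by symbol for 34 of the 37 tested Rabs, with 41 windows in all. The GC box, read on both strands, lay in 31 of these 41 windows (75.6%), against 63.7% of the 9998 windows matched to the genes tested and 35.7% of all 32851 windows. CACGTG, which is its own reverse complement, lay in 5 of 41 (12.2%), those of Rab20, Rab21, Rab23, Rab24 and Rab5a, against 10.6% of the windows of genes tested and 7.15% of all. TATAAA, also read on both strands, lay in 1 of 41 windows (2.44%), a second window of Rab7, against 6.46% and 13.6%. The median GC content was 63.3% with 25 CpG for the Rab windows and 61% with 21 CpG for those of genes tested. The counts describe these windows and name no bound factor.

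FPKM, fragments scaled to transcript length and to the mapped fragments of a library, was used to set levels beside each other between genes and between libraries. Its sum over all genes still differed between libraries, from 473547 to 522812 FPKM. In control cells the most abundant Rab transcript was Rab7, which drives the fusion of late endosomes with lysosomes, at 161 ± 5.66 FPKM (SD, n = 3), higher than 95.6% of the genes tested. It was followed by Rab1 at 148 ± 4.97 FPKM (SD, n = 3), which works with Rab1b between endoplasmic reticulum and Golgi, and by Rab14 at 118 ± 13.7 FPKM (SD, n = 3), a Rab between endosomes and Golgi. Rab1b at 105 ± 2.64 FPKM (SD, n = 3) and Rab31, which acts between Golgi and endosomes, at 103 ± 1.19 FPKM (SD, n = 3) completed the 5 Rabs above 100 FPKM. The next 5 were Rab10 of exocytosis at 83.4 FPKM, Rab5c of early endosomes at 79.1 FPKM, Rab35 of fast recycling at 57.5 FPKM, Rab6a of retrograde Golgi traffic at 53.9 FPKM and Rab11a of slow recycling at 49.8 FPKM.

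**Figure D1:**
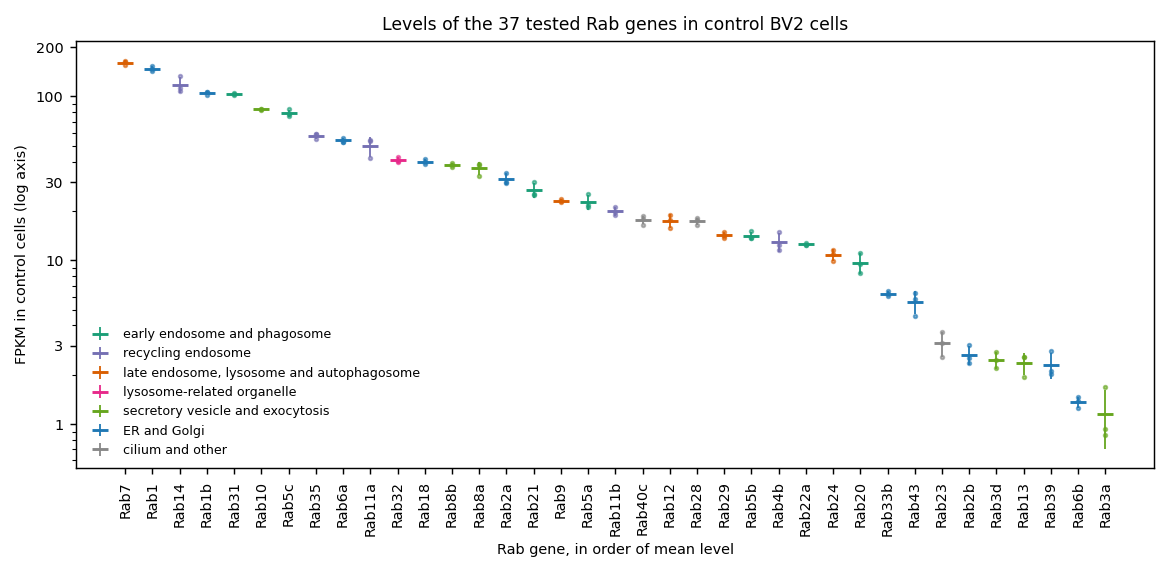
Levels of the 37 tested Rab genes in control BV2 cells, in order of their mean, as FPKM on a log axis, where dashes are means, bars are SD over 3 libraries, dots are libraries and colours are compartments. Levels ran from 161 FPKM for Rab7 to 1.16 FPKM for Rab3a, with members of every larger compartment spread along the order.

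Tested Rabs had a median of 19.9 FPKM in control cells, against 17.3 FPKM for all 11161 genes tested. In the order of the 37 means, only 12 of the 36 neighbouring pairs had libraries that did not overlap. Rab7, Rab1 and Rab14 were each apart from the next, whereas Rab1b and Rab31 overlapped, Rab10 and Rab5c overlapped, and all pairs from Rab35 at 57.5 FPKM down to Rab21 at 26.9 FPKM overlapped. At the low end stood Rab3d at 2.47, Rab13 at 2.36, Rab39 at 2.31, Rab6b at 1.36 and Rab3a at 1.16 FPKM, mostly Rabs of regulated secretion or of polarized cells. Rab3a, just inside the filter, had a mean of 1.06 FPKM over the 9 libraries, about 21.6 fragments per library by the estimated depth, and Rab30, just outside, had 0.372 FPKM.

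Of the 20 Rabs under the filter, those above 0 in some library were Rab15, Rab19, Rab25, Rab26, Rab27a, Rab30, Rab33a, Rab34, Rab37, Rab39b and Rab44. Rab3b, Rab3c, Rab9b, Rab17, Rab27b, Rab36, Rab38, Rab40b and Rab42 were listed at 0 in all 9 libraries, and since Cufflinks can leave a failed estimate at 0 this does not show that they were absent. Rab27a and Rab27b, the pair of Rabs that dock lysosome-related granules for release in blood cells, thus stood at a mean of 0.00624 FPKM and at 0, respectively. Rab4a was not analysed here.

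Several families of closely related Rabs had most of their FPKM in 1 member. Within the Rab5 family, Rab5c held 68.2% ± 1.98 (SD, n = 3) of the family's FPKM in control cells, Rab5a 19.6% ± 2.18 (SD, n = 3) and Rab5b 12.2% ± 0.257 (SD, n = 3). Rab6a held 97.5% of the Rab6 pair, Rab2a 92.2% of the Rab2 pair and Rab11a 71.1% of its family with Rab11b and Rab25. By contrast, Rab8a and Rab8b shared theirs at 48.7% and 51.3%, and Rab1 and Rab1b at 58.5% and 41.5%. The Rab2 shares are uncertain, since 57.0% of the stretches of 50 bases in Rab2b transcripts were shared with other genes, read on both strands. Most of this, 54.5%, was with a gene on the opposite strand. That part matters only if the counting ignored strand, a setting not given in the sources used here. At 100 µg/ml the Rab5 shares were 68.7% for Rab5c, 21% for Rab5a and 10.3% ± 1.59 (SD, n = 3) for Rab5b, whose libraries at 8.53, 11.6 and 10.7% all lay under the control libraries at 12.1, 12.5 and 12.0%. The Rab5b shares at 10 µg/ml, 11.5, 11.9 and 11.0%, lay under the control libraries as well. Its FPKM at 10 µg/ml overlapped that of control cells, at -0.03 as log2 fold change. The lowest share, 8.53%, was that of replicate 1 at 100 µg/ml, where Rab5c stood highest, at 101 FPKM. The shares of Rab5a and Rab5c overlapped between the groups. How often such shares did not overlap over all families was not counted.

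Grouped by compartment, with untested members included, 14 Rabs of the endoplasmic reticulum and Golgi (10 tested) held 28.5% of all Rab FPKM in control cells. The share was 19.3% for 7 Rabs of early endosomes and phagosomes (7 tested) and 18.5% for 8 of recycling endosomes (5 tested). It was 16.3% for 7 of late endosomes, lysosomes and autophagosomes (5 tested) and 11.8% for 13 of secretory vesicles (6 tested). At 100 µg/ml these shares were 29.1, 19.5, 18.3, 16.2 and 11.9%. The sum of all Rab transcripts was 1395 ± 9.17 FPKM in control cells. It was 1399 ± 19.9 FPKM in cells given 10 µg/ml and 1405 ± 70.4 FPKM in those given 100 µg/ml (all SD, n = 3). At 100 µg/ml replicate 1 had 1486 FPKM, against 1358 and 1371 FPKM in replicates 2 and 3, but the FPKM of all its genes also summed higher, so that the Rabs took 0.284, 0.285 and 0.289% of the summed FPKM in the 3 libraries. In control cells this share was 0.266, 0.269 and 0.294%, a wider spread. Replicate 1 at 100 µg/ml was the highest of its group for 19 of 37 Rabs (51.4%) and for 45.8% of all genes tested, and its estimated depth of 15.0 M (mega) fragments was the largest of the 9 libraries, the others lying at 12.1 to 13.7 M.

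Between 100 µg/ml MNPs@SiO2(RITC)-treated and control cells, 1 of the 37 tested Rabs had an adjusted p under 0.05 in limma, on log2(FPKM + 1) with Benjamini-Hochberg adjustment over all 11161 genes tested, of which 2.11% passed. That gene was Rab32, which fell. Unadjusted p was under 0.05 for 6 Rabs, against 19.4% of all genes: Rab10, Rab12 and Rab35 were higher and Rab32, Rab31 and Rab5b lower at 100 µg/ml. For 9 of 37 Rabs the libraries of both groups did not overlap (24.3%), where 23.8% of all genes did so. Of these, Rab10, Rab35, Rab6a and Rab33b were higher and Rab31, Rab32, Rab5b, Rab3d and Rab39 lower, Rab33b being named after its values were seen. The median log2 fold change of the 37 Rabs was -0.03 and that of all genes 0.00. In absolute size the median was 0.11 for the Rabs and 0.11 for all genes. The SD of the log2 fold change was 0.14 over the Rabs and 0.27 over all genes, whose values ran from -5.42 to 4.23.

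Rab32, which with its exchange factor builds lysosome-related organelles such as melanosomes and also sits on mitochondria, lies on chromosome 10 from 10545011 to 10558233 on the minus strand of GRCm38 and is protein-coding (ENSMUSG00000019832). Its level was 40.5, 42.9 and 39.9 FPKM in the control libraries, 39.4, 40.1 and 40.2 FPKM at 10 µg/ml and 35.4, 31.8 and 32.2 FPKM at 100 µg/ml. All 3 libraries at 100 µg/ml lay under all 6 others, while the control libraries and those at 10 µg/ml overlapped. Its control mean was 41.1 ± 1.58 FPKM and that of the 100 µg/ml libraries 33.1 ± 1.99 FPKM (both SD, n = 3), which is -0.30 as log2 fold change (limma adjusted p = 0.0320, standard error 0.06, 95% confidence interval -0.43 to -0.18). At 10 µg/ml the log2 fold change was -0.04 (adjusted p = 1.0 from limma), and between 100 and 10 µg/ml it was -0.26 (adjusted p = 0.0813 from limma).

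The call of Rab32 against control was lost in limma when only the 6 libraries compared were fitted (adjusted p = 0.118). It was also lost without control replicate 1, 2 or 3 (adjusted p = 0.105, 0.139 and 0.0723 from limma) and without replicate 2 or 3 at 100 µg/ml (adjusted p = 0.0799 and 0.105 from limma), with the log2 fold change between -0.35 and -0.27 whichever library was left out. Without replicate 1 at 100 µg/ml, the library that stood apart, Rab32 was called against control (adjusted p = 0.00912 from limma) and also against 10 µg/ml (log2 fold change -0.31, adjusted p = 0.0227 from limma). In that fit 539 of all 11161 genes tested passed against control and 191 against 10 µg/ml, where 236 and 95 did with all libraries. No stretch of 50 bases in the transcripts of Rab32 occurred in GENCODE transcripts of another gene. Its closest relative, Rab38, was listed at 0 in every library.

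**Figure D2:**
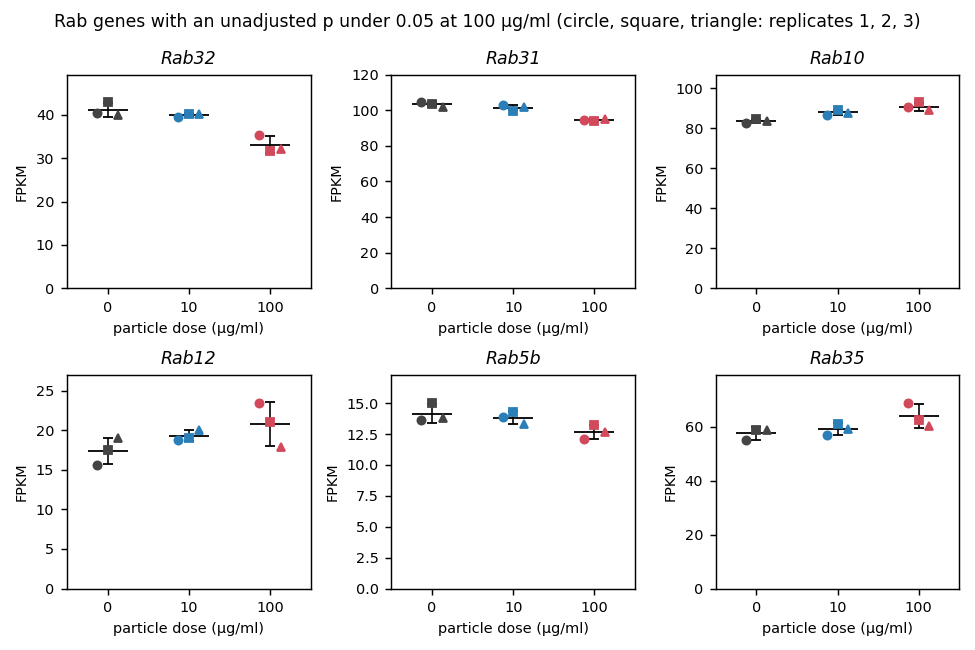
FPKM by particle dose (0, 10 and 100 µg/ml) of the 6 Rab genes with an unadjusted p under 0.05 between 100 µg/ml and control, each point a library (circle, square and triangle for replicates 1, 2 and 3) and lines the mean and SD of 3 libraries. The Rab32 libraries at 100 µg/ml sit between 31.8 and 35.4 FPKM, under all others, and the Rab31 libraries between 94.2 and 95.2 FPKM, also under all others.

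Of the 7 tested early endosome and phagosome Rabs, 0 passed the adjusted threshold in limma at 100 µg/ml, and 2, Rab31 and Rab5b, were under 0.05 unadjusted (28.6%, against 19.4% of all genes). Rab5a, which tethers and fuses early endosomes, stood at 21, 21.8 and 25.4 FPKM in control cells, 24.8, 23.7 and 25.4 FPKM at 10 µg/ml and 28.9, 24.5 and 24.99 FPKM at 100 µg/ml. Its groups overlapped, and between 100 µg/ml and control the log2 fold change came to 0.19 (limma adjusted p = 0.266, standard error 0.09), or 0.12 without replicate 1 at 100 µg/ml. Rab5b, with the same fusion role, had 13.6, 15.0 and 13.8 FPKM in control cells, 13.9, 14.3 and 13.3 FPKM at 10 µg/ml and 12.1, 13.2 and 12.6 FPKM at 100 µg/ml. Its libraries at 100 µg/ml lay under all others, with -0.15 as log2 fold change against control (limma adjusted p = 0.239, standard error 0.06). Rab5c had 77.8, 83.7 and 75.8 FPKM in control cells, 82.3, 82.3 and 81.8 FPKM at 10 µg/ml and 101, 76.0 and 79.9 FPKM at 100 µg/ml. Replicate 1 alone made its mean higher at 100 µg/ml: the log2 fold change was 0.10 with that library and -0.02 without it.

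Rab31, the most abundant Rab of this compartment, had the narrowest 95% confidence interval of all 37. It had 104, 104 and 102 FPKM in control cells, 103, 99.7 and 102 FPKM at 10 µg/ml, and 94.6, 94.2 and 95.2 FPKM at 100 µg/ml. The groups at 100 µg/ml and control did not overlap, but the difference was small, -0.13 as log2 fold change (limma adjusted p = 0.138, standard error 0.04), and it stood at -0.14 to -0.11 under the 14 alternatives. Rab20, which promotes the maturation of phagosomes in macrophages, had 8.38, 11.1 and 9.50 FPKM in control cells, 9.15, 11.1 and 12.8 FPKM at 10 µg/ml and 13.4, 10.5 and 13.0 FPKM at 100 µg/ml. Among the Rabs it had the largest positive log2 fold change of the 100 µg/ml comparison, 0.32, but its groups overlapped and it did not pass (limma adjusted p = 0.259, standard error 0.14). In the Rab20 transcripts, 22.9% of 50-base stretches were shared with a gene on the opposite strand. Its level is therefore uncertain if the counting ignored strand, a setting not given in the sources used here.

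Of the 5 tested recycling Rabs, 0 passed in limma at 100 µg/ml (2.11% of all genes did) and 1, Rab35, was under 0.05 unadjusted, near the 19.4% of all genes. Rab35, which returns cargo from endosomes to the plasma membrane, had 54.9, 58.8 and 58.8 FPKM in control cells, 56.9, 61.1 and 59.1 FPKM at 10 µg/ml and 68.9, 62.4 and 60.3 FPKM at 100 µg/ml. The libraries at 100 µg/ml lay above those of control cells, with 0.15 as log2 fold change (limma adjusted p = 0.241, standard error 0.06) that was 0.09 without replicate 1. Rab11a, of the slow recycling route, had 53.4, 54.0 and 41.9 FPKM in control cells, 42.9, 40.4 and 51.9 FPKM at 10 µg/ml and 54.0, 43.4 and 47.0 FPKM at 100 µg/ml. Its 3 groups overlapped throughout, and the log2 fold changes were -0.14 at 10 µg/ml and -0.04 at 100 µg/ml. With single libraries left out they ran from -0.26 to -0.07 and from -0.16 to 0.03, so that the sign at 100 µg/ml depended on the libraries used. Rab11b, its near copy in function, had 18.8, 19.6 and 21.2 FPKM in control cells, 20.7, 23.5 and 24.5 FPKM at 10 µg/ml and 24.7, 19.5 and 21.4 FPKM at 100 µg/ml. It had the largest positive log2 fold change at 10 µg/ml, 0.19 (unadjusted p = 0.0720 and adjusted p = 1.0 from limma), with 0.13 at 100 µg/ml, where it was 0.04 without replicate 1. Rab4b, of the fast recycling route, had 14.8, 11.6 and 12.3 FPKM in control cells, 12.8, 17.9 and 12.5 FPKM at 10 µg/ml and 13.2, 14.1 and 11.9 FPKM at 100 µg/ml. The groups of Rab4b overlapped, and 58.1% of its 50-base stretches occurred in transcripts of another gene, so that its level is uncertain.

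Of the 5 tested late endosome, lysosome and autophagosome Rabs, 0 passed in limma, against 2.11% of all genes, and 1, Rab12, was under 0.05 unadjusted, near the 19.4% of all genes. Rab7 stood at 166, 163 and 155 FPKM in control cells, 150.3, 153 and 158 FPKM at 10 µg/ml and 165, 154 and 154 FPKM at 100 µg/ml. The groups overlapped, and between 100 µg/ml and control the log2 fold change came to -0.03 with a 95% confidence interval of -0.15 to 0.08 (adjusted p = 0.779 from limma). In Rab7 transcripts 12.7% of 50-base stretches were shared with those of other genes, read on both strands. This share was 13.6% for Rab11b, 19.0% for Rab6a and 21.2% for Rab33b. For Rab6a (17.7%) and Rab33b (17.1%) most of it was with a gene on the opposite strand. Rab9, which returns receptors from late endosomes to the Golgi, had 22.6, 23.7 and 23.1 FPKM in control cells, 23.0, 21.2 and 23.9 FPKM at 10 µg/ml and 28.5, 19.6 and 23.5 FPKM at 100 µg/ml. The control libraries of Rab9 lay within the span of those at 100 µg/ml, whose replicate 1 was the highest of all 9. Against control, 100 µg/ml gave Rab9 a log2 fold change of 0.03, and -0.10 without that library. Rab12, which sends the transferrin receptor to lysosomes and acts in autophagy, had 15.7, 17.5 and 19.0 FPKM in control cells, 18.7, 19.1 and 20.1 FPKM at 10 µg/ml and 23.5, 21.1 and 17.9 FPKM at 100 µg/ml. Its groups overlapped, with 0.24 as the log2 fold change between 100 µg/ml and control (limma adjusted p = 0.232, standard error 0.10), or 0.16 without replicate 1 at 100 µg/ml.

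Among the 6 tested secretory Rabs, 0 passed in limma (all genes 2.11%) and 1, Rab10, was under 0.05 unadjusted (16.7%, all genes 19.4%). Rab10, which carries vesicles to the plasma membrane, had 82.5, 84.4 and 83.5 FPKM in control cells, 86.7, 89.2 and 87.8 FPKM at 10 µg/ml and 90.5, 92.9 and 88.8 FPKM at 100 µg/ml. The control libraries lay under all 6 treated ones, while the 2 doses overlapped. The log2 fold changes were 0.07 at 10 µg/ml and 0.12 at 100 µg/ml (limma adjusted p = 0.169, standard error 0.04). Rab13, Rab3d and Rab3a, of tight junctions and of regulated exocytosis, had log2 fold changes of -0.26, -0.18 and -0.08 at 100 µg/ml, on levels under 3 FPKM, with about 38.5, 121 and 21.6 estimated fragments per library. That of Rab13 was -0.12 without replicate 3 at 100 µg/ml, and that of Rab3a was 0.09 without control replicate 1. Rab8a, which delivers vesicles to the surface and the cilium, had -0.09 at 10 µg/ml and -0.13 at 100 µg/ml, and -0.17 and -0.21 without control replicate 3. At 10 µg/ml it was -0.05 and -0.06 without control replicates 1 and 2.

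In the endoplasmic reticulum and Golgi group, 0 of 10 passed in limma at 100 µg/ml, and none was under 0.05 unadjusted, against 2.11% and 19.4% of all genes. Rab1, Rab1b and Rab6a had log2 fold changes of 0.04, 0.08 and 0.11 there, and those of Rab1 and Rab1b were -0.04 and 0.02 without replicate 1 at 100 µg/ml. Rab43, of traffic between endoplasmic reticulum and Golgi, averaged 5.58 FPKM in control cells, 6.37 FPKM at 10 µg/ml and 4.92 FPKM at 100 µg/ml, and 74.5% of its 50-base stretches occurred in another gene's transcripts. Rab39, linked to phagosome acidification in macrophages, averaged 2.31, 2.44 and 1.84 FPKM. Of the 3 Rabs in the last group, Rab40c, part of a ubiquitin ligase, had -0.11 as log2 fold change between 100 µg/ml and control and Rab23, an inhibitor of Hedgehog signalling, 0.11, and 0 of 3 passed in limma, none being under 0.05 unadjusted, against the same shares of all genes. Rab40c stood at -0.02 without replicate 3 at 100 µg/ml, and Rab23 at 0.01 without control replicate 2.

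**Figure D3:**
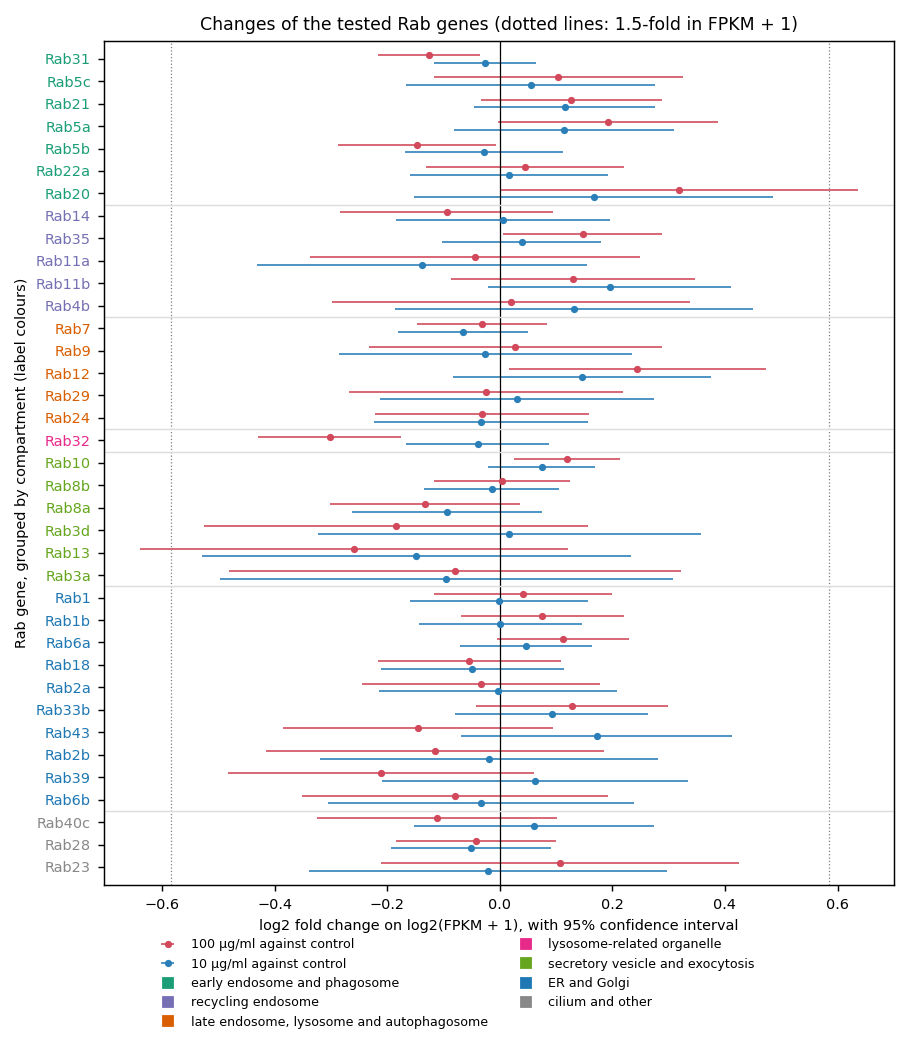
Log2 fold changes of the 37 tested Rab genes on log2(FPKM + 1), with 95% confidence intervals from limma, at 100 µg/ml (red) and 10 µg/ml (blue) against the same control libraries, grouped by compartment (label colours), with dotted lines at a 1.5-fold change of FPKM + 1. The interval of Rab32 at 100 µg/ml runs from -0.43 to -0.18, and those of Rab20 and Rab13 reach past the dotted lines.

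Between 10 µg/ml MNPs@SiO2(RITC)-treated and control cells, 0 of the 37 Rabs passed in limma, with 0 at an unadjusted p under 0.05. Of all genes tested, 0% passed the adjusted threshold and 3.28% were under 0.05 unadjusted. The libraries of 1 Rab, Rab10, did not overlap, against 10.7% of all genes. Between 100 and 10 µg/ml, 0 Rabs passed in limma, against 0.851% of all genes, and 4 had an unadjusted p under 0.05, against 14.3% of all genes. These 4, Rab32, Rab43, Rab31 and Rab39, were all lower at 100 µg/ml, with log2 fold changes of -0.26, -0.32, -0.10 and -0.27. For 5 Rabs these libraries did not overlap (13.5%, against 19.4% of all genes), namely the same 4 and Rab5b, all lower at 100 µg/ml.

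The size of change that these libraries could show was read from the intervals. The 95% confidence interval of the log2 fold change had a median half-width of 0.20, from 0.09 for Rab31 to 0.40 for Rab3a. At 100 µg/ml 35 of the 37 intervals lay inside a 1.5-fold change of FPKM + 1 in either direction, the others being those of Rab20 and Rab13, and at 10 µg/ml all 37 did. For Rabs of a few FPKM, such as Rab3a, Rab6b, Rab39, Rab13 and Rab3d, this scale understates the change in level, and a 1.5-fold change in their FPKM itself is not excluded by these intervals. These intervals are per gene and were not adjusted for the number of genes.

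Rabs are held in place by a wider machinery, of which 156 genes were listed and 130 tested. Of these 130, 1 passed in limma at 100 µg/ml (0.769%, against 2.11% of all genes) and 1 between the doses (0.769%, against 0.851%), and in both calls the gene was Rin2. At 10 µg/ml 0 passed in limma, and 2 were under 0.05 unadjusted (1.54%, against 3.28% of all genes). At an unadjusted p under 0.05 there were 14 at 100 µg/ml (10.8%, 6 higher and 8 lower), against the 19.4% of all genes. By class, these were 1 higher and 3 lower of 31 exchange factors, 2 higher and 3 lower of 32 GTPase-activating proteins, 1 lower of 15 late endosome effectors, 1 higher each of 10 recycling and 10 secretion effectors, and 1 higher and 1 lower of 11 effectors at endoplasmic reticulum and Golgi. None of the 9 genes of Rab carriers and prenylation and none of the 12 early endosome effectors did so.

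Rin2, an exchange factor that loads Rab5 with GTP, had 24.0, 24.0 and 23.4 FPKM in control cells, 24.7, 25.2 and 23.3 FPKM at 10 µg/ml and 19.5, 18.8 and 19.0 FPKM at 100 µg/ml. The libraries at 100 µg/ml lay under all 6 others, which overlapped. Rin2 fell by 0.30 on the log2 scale against control (limma adjusted p = 0.0195, standard error 0.05) and by 0.34 against 10 µg/ml (adjusted p = 0.0243 from limma). Under the 6 alternatives of scaling, filter, pseudocount and trend, and without replicate 1 at 100 µg/ml, both calls were kept (adjusted p = 0.0159 and 0.0226 from limma without that library). With only the 6 libraries compared both were lost (adjusted p = 0.0805 and 0.127 from limma) at log2 fold changes still of -0.30 and -0.34. Against control the call was lost without control replicate 1, 2 or 3 (adjusted p = 0.0840, 0.0993 and 0.0600 from limma) and without replicate 2 or 3 at 100 µg/ml (0.0554 and 0.0741), and against 10 µg/ml without replicate 1, 2 or 3 at 10 µg/ml (0.127, 0.104 and 0.0543) and without replicate 2 or 3 at 100 µg/ml (0.0699 and 0.0959). Whichever library was left out, the log2 fold change stood between -0.32 and -0.29 against control and between -0.37 and -0.32 against 10 µg/ml. Of the other Rab5 exchange factors, named after their values were seen, Rin3 stood at -0.14, Rabgef1 at -0.05, Rin1 at 0.12 and Gapvd1 at -0.13 in log2 fold change between 100 µg/ml and control, and none passed.

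**Figure D4:**
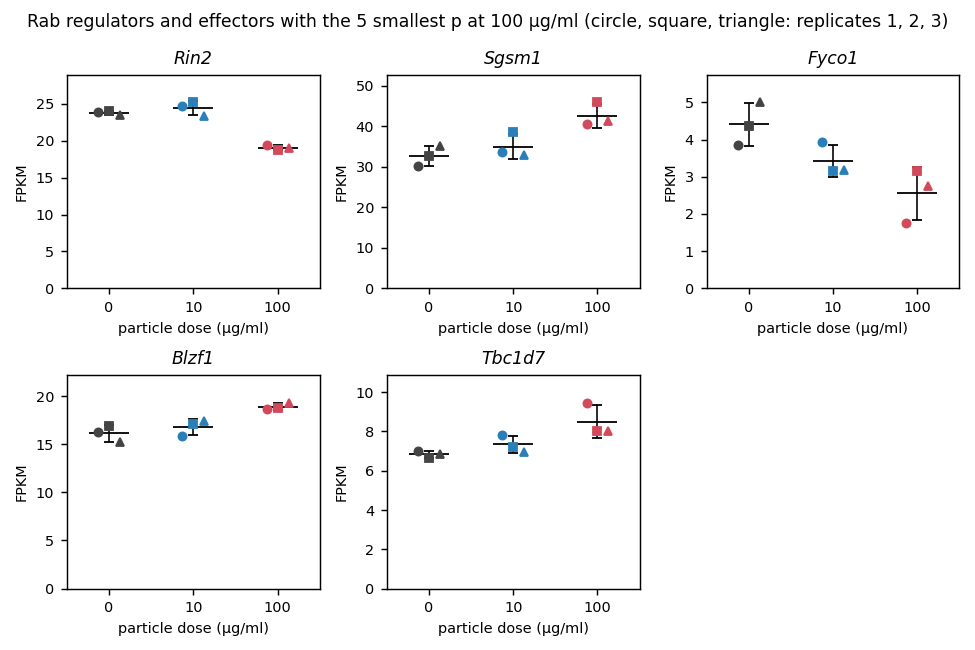
FPKM by particle dose (0, 10 and 100 µg/ml) of the 5 Rab regulators and effectors with the smallest p between 100 µg/ml and control, each point a library (circle, square and triangle for replicates 1, 2 and 3) and lines the mean and SD of 3 libraries. Rin2 sits between 18.8 and 19.5 FPKM at 100 µg/ml, under all other libraries, and was the one of the 5 past the adjusted threshold.

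The next smallest p at 100 µg/ml belonged to Sgsm1, a RUN and TBC domain GTPase-activating protein. Its level was 30.1, 32.6 and 35.0 FPKM in control cells, 33.6, 38.5 and 32.8 FPKM at 10 µg/ml and 40.4, 45.9 and 41.2 FPKM at 100 µg/ml. The libraries at 100 µg/ml lay above all 6 others, at 0.37 as log2 fold change (limma adjusted p = 0.0601, standard error 0.08). Without replicate 1 at 100 µg/ml Sgsm1 passed, at 0.41 (limma adjusted p = 0.0487, against up to 0.191 under the other alternatives). In that fit Tbc1d9b, another TBC domain protein, also passed, at 0.33 (limma adjusted p = 0.0357). With all libraries Tbc1d9b stood at 0.11, without replicate 2 at 100 µg/ml at 0.02 and without replicate 3 at -0.007. Calls were more numerous among all 11161 genes too, with 539 passing in limma without replicate 1, against 236 with all libraries. Fyco1, which links Rab7-positive vesicles to kinesin, had 3.85, 4.36 and 4.998 FPKM in control cells, 3.92, 3.16 and 3.18 FPKM at 10 µg/ml and 1.77, 3.14 and 2.76 FPKM at 100 µg/ml. The groups at 100 µg/ml and control did not overlap, and the log2 fold change was -0.62 (limma adjusted p = 0.0861, standard error 0.16). Blzf1, a golgin that binds Rab2, and Tbc1d7, a TBC domain protein, had 0.22 and 0.27 (adjusted p = 0.100 and 0.112 from limma).

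At 10 µg/ml the smallest p of the machinery belonged to Pik3r4, the regulatory subunit of the class III phosphatidylinositol 3-kinase that makes the lipid of early endosomes. It had 11.0, 10.3 and 11.8 FPKM in control cells, 14.2, 14.7 and 15.6 FPKM at 10 µg/ml and 9.64, 12.9 and 11.9 FPKM at 100 µg/ml. The libraries at 10 µg/ml lay above all 6 others, with a log2 fold change of 0.40 against control (unadjusted p = 0.00322 and adjusted p = 1.0 from limma) and 0.05 at 100 µg/ml. The latter was 0.16 when replicate 1 at 100 µg/ml was left out and -0.03 when replicate 2 was. The other 4 were Sgsm2 (0.26), Tbc1d9b (0.32), Hps4 (0.19) and Exoc1 (0.11), with an adjusted p of 1.0 from limma each. Between the doses, Pik3r4 (-0.35), Tbc1d13 (-0.20) and Dennd6a (-0.17) were lower and Sgsm1 (0.28) higher at 100 µg/ml, without passing.

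Because Rab32 fell, the genes of its regulators were read as well, Hps1 and Ankrd27 being named after their values were seen. Hps1 and Hps4 form the exchange factor of Rab32, and Ankrd27 binds it. At 100 µg/ml their log2 fold changes were -0.03, 0.21 and 0.11 (adjusted p = 0.853, 0.229 and 0.494 from limma), and none passed. That of Hps4 was 0.14 without control replicate 1. Its 0.19 at 10 µg/ml was 0.12 without that library and 0.13 without replicate 3 at 10 µg/ml.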

How the data were processed

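Poly(A) RNA from BV2 cells was sequenced in 9 libraries, which were grouped by the dose in their labels. The authors aligned reads with TopHat and deposited FPKM values from Cufflinks 2.1.1 on Ensembl release 77 (GRCm38), with no counts. FPKM divides out transcript length and depth, but reads that map to related genes are shared out by the program, and the strand setting of the counting is not given in the sources used here. No value column was left out. Values entered limma 3.58.1 (R 4.3.3) as log2(FPKM + 1), a scale that understates the fold changes of low genes, for the 11161 genes averaging 1 FPKM or more, the 3 groups in one fit, with the trend option and Benjamini-Hochberg adjustment at 0.05. The procedure was tested on simulated data. Tables were made with pandas 2.3.3 and numpy 2.4.6 under Python 3.11.15. Cuffdiff, which the authors used, takes alignments and was not run.
Depth was estimated from the steps between low FPKM values of genes with 1 transcript, at 12.2, 13.7 and 13.3 M (mega) fragments in control libraries, 13.5, 13.2 and 12.6 at 10 µg/ml and 15.0, 12.1 and 13.4 at 100 µg/ml. These depths are approximate: 76.6% of the 4210 low values were whole fragment numbers to within 0.25, where 50% would be by chance at a depth fixed beforehand. Each depth was the one that best matched these same values, so that 76.6% overstates the match. Sequence shared between genes was counted as 50-base stretches of GENCODE M21 transcripts, read on both strands.
The Rab genes, their compartments and the lists of regulators and effectors were chosen with earlier results of these data known. Genes named are Rab5a, Rab5b, Rab5c, Rab4b, Rab11a, Rab11b, Rab7 and Rab9, the 10 Rabs most abundant in control cells, the 5 largest positive and 5 largest negative fold changes per comparison, Rabs or machinery genes past the threshold, and the 5 machinery genes with the smallest p per comparison. Alternatives were a pseudocount of 0.1, a filter at 5 FPKM, no filter, quantile normalization, median-of-ratios rescaling, no trend, only the 6 libraries compared, a replicate block, and leaving out each library.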

Additional observations from a re-analysis of the deposited data

Results flagged for a closer look

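The effect on Rin2, the Rab5 exchange factor, differed between the doses by the test of 100 against 10 µg/ml: its log2 fold change there was -0.34 (adjusted p = 0.0243 from limma, Benjamini-Hochberg over all genes tested), with 3 of 3 libraries at 100 µg/ml under all 3 at 10 µg/ml. This call was lost with only the 6 libraries compared (adjusted p = 0.127 from limma) and in 5 of 6 fits leaving out single libraries (adjusted p from 0.0543 to 0.127 from limma), all but the one without replicate 1 at 100 µg/ml. No Rab gene met this criterion with all 9 libraries in the fit.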

How the results depend on the processing

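At 100 µg/ml against control, the number of Rab genes past the adjusted threshold was 1 with all libraries and 0 with only the 6 libraries compared. With the replicate block it was 0, the adjusted p of Rab32 being 0.0854 and those of Rin2 0.0612 against control and 0.0744 against 10 µg/ml in limma, and the block cannot be taken as a pairing, since deviations of same-numbered libraries correlated at only -0.09 to 0.15. Leaving out 1 library gave 0 to 1 Rabs against control and 0 to 1 between the doses, the latter being Rab32 without replicate 1 at 100 µg/ml. The calls among all 11161 genes tested moved as well when 1 library was left out. Against control they went from 236 to between 31 and 539, and between the doses from 95 to between 8 and 191. With only the 6 libraries compared they were 22 and 6. The 6 other alternatives that kept every library left Rab32 called against control (adjusted p from limma between 0.0270 and 0.0466). At 10 µg/ml the number of Rab genes past the threshold was 0 under every alternative run. The cause of the lost calls was not tested, except that leaving out a library or fitting 6 leaves fewer samples. Under the alternatives the log2 fold change of Rab32 against control ran from -0.35 to -0.27. The FPKM table gives no counts, so that depth was only estimated.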
